A study of Homo sapiens with 15 samples.

Results

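The genes described here store, release or burn fatty acids: ANGPTL4, CIDEC, CIDEB, PLIN2, PLIN3, PNPLA2, LPIN1, ACSL1, CPT1A and PDK4. They were taken as every probe set whose symbol in the array annotation is one of these 10, which gave 21 probe sets of the 54675 on the array. None of the 21 carried several symbols, and all 21 passed the filter on low signals. The genes were chosen by their difference in signal between dexamethasone and non-treated cells, which was already known, so that difference is given below as a description with no test.

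RNA came from A549 cells, a human lung adenocarcinoma line, kept in F12K medium whose serum had been stripped with charcoal. There were 15 Affymetrix arrays in 5 groups of 3. The match polyamide group had 48 hours of match polyamide and 6 hours of dexamethasone, and the mismatch polyamide group had 48 hours of mismatch polyamide and 6 hours of dexamethasone. The mifepristone group had 48 hours of mifepristone and 6 hours of dexamethasone, the dexamethasone group had 6 hours of dexamethasone alone, and non-treated cells had neither. Dexamethasone is a synthetic agonist of the glucocorticoid receptor and mifepristone an antagonist of it. A polyamide of this kind is a synthetic small molecule that binds the minor groove of DNA at a short sequence. Per the series title the match compound was aimed at the glucocorticoid response element, the DNA sequence the receptor binds. No label gives a dose, so whether the compounds were compared at the same dose is not known. The labels do not say whether the 3 arrays of a group came from separate cultures, so the spread that the p-values rest on may be technical only. In RNA from whole cultures, fewer cells making a transcript and less transcript per cell cannot be told apart.

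Lipid droplets are stores of triglyceride coated with perilipins and enlarged by CIDE proteins, and their triglyceride is released by lipases such as the one PNPLA2 encodes. Fatty acids are joined to coenzyme A by enzymes such as ACSL1 before they are stored or, through CPT1A, taken into mitochondria. PDK4 shuts down the pyruvate dehydrogenase complex and so turns cells from glucose towards fatty acids, and ANGPTL4 blocks lipoprotein lipase outside the cell. Glucocorticoids are known to induce ANGPTL4 and PDK4 in several tissues.

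Every signal below is a quantile-normalized intensity on a linear scale. Every difference is a mean difference of log2(signal + 16) with its standard error (SE), and any fold is on that scale, which understates changes of dim probe sets. A probe set was called, and is said to have risen or fallen, where its p-value from limma adjusted over all 39778 probe sets tested was under 0.05. The 3 comparisons of a compound with dexamethasone alone share the dexamethasone arrays, and those with non-treated cells share the non-treated arrays. The choice of the genes used both of these sets of arrays, so the tests against either are not independent of it, while those between compounds use neither. All 6 epithelial markers were measured, with summed signals of 17468 to 19986 in match, 21903 to 22386 in mismatch, 19805 to 20760 in mifepristone, 23636 to 24203 in dexamethasone and 20764 to 21590 in non-treated arrays. Of 6 adipocyte markers, ADIPOQ, LEP and PLIN1 did not pass the filter. The summed signals of all 6, these included, were 583 to 725 in match, 673 to 702 in mismatch, 700.5 to 756 in mifepristone, 718 to 828 in dexamethasone and 639 to 698 in non-treated arrays. Of 5 fibroblast markers, PDGFRB did not pass. All 5, PDGFRB included, summed to 234 to 298 in match, 177 to 230.3 in mismatch, 138 to 193 in mifepristone, 131 to 176 in dexamethasone and 153 to 197 in non-treated arrays. The part of these shifts in the results was not tested.

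The stretch of 250 bases before the transcription start is shown for the genes with the largest differences, because the match compound was aimed at the receptor's DNA sequence. Sequences are from RefSeq (GRCh38.p14), written 5′ to 3′ on the gene's strand, and capitals mark the hexamer AGAACA or its reverse complement TGTTCT, which forms each arm of the receptor's palindromic element. All 10 genes matched, with 18 start sites. The windows are chr19:8363905-8364154 on the plus strand for ANGPTL4, and chr3:9878813-9879062, chr7:95596517-95596766 and chr4:184812252-184812501 on the minus strand for CIDEC (start 2 of 2), PDK4 and ACSL1 (start 5 of 5). For CIDEC and ACSL1 the start shown is the one whose window holds the hexamer.
ANGPTL4: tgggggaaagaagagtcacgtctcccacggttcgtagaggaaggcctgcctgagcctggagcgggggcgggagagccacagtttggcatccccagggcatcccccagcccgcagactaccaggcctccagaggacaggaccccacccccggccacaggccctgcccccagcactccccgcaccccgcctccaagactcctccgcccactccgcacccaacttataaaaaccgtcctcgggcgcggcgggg
CIDEC: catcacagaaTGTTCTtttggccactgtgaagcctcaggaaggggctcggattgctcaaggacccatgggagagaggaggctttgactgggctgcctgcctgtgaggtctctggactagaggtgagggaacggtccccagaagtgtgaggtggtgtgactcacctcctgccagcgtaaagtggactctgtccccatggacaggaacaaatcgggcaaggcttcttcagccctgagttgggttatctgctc
PDK4: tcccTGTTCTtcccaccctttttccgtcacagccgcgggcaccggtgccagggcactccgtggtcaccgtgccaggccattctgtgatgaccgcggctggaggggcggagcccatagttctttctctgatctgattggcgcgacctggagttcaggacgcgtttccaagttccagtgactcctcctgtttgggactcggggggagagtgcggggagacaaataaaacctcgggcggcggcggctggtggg
ACSL1: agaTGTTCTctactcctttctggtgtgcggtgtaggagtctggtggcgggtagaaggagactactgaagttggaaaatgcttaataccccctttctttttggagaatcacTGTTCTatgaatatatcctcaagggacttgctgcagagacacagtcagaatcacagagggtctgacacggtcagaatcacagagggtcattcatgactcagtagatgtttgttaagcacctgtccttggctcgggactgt
Searched on both strands, the hexamer was in 3 of the 18 windows, which are the CIDEC, PDK4 and ACSL1 windows shown. It was in 12.4% of all 35116 RefSeq windows of the same length. The full palindrome, AGAACA and then TGTTCT with 3 bases of any kind between them, contains the hexamer and was in 0 of the 18 windows and 0.00285% of all. The PPAR element, AGGTCA repeated in the same direction with 1 base of any kind between the copies, was in 0 of the 18 and 0.0171% of all. A match or its lack in these windows says nothing of binding.

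ANGPTL4, the secreted inhibitor of lipoprotein lipase, fell under all 3 compounds, more under mifepristone than under either polyamide. Its probe set 221009_s_at read 202, 234 and 276 in match arrays, 276, 299 and 217 in mismatch arrays, 55.9, 86.9 and 86.5 in mifepristone arrays, 361, 337 and 417 in dexamethasone arrays and 20.7, 31.6 and 22.1 in non-treated arrays. The polyamide arrays overlapped each other and lay below every dexamethasone array, and the mifepristone arrays lay between those and the non-treated ones. Dexamethasone cells were higher than non-treated cells by 3.25 (SE 0.16) on the log2 scale. Relative to dexamethasone alone the gene fell by 2.08 under mifepristone (SE 0.16, 4.23-fold lower, adjusted p = 2.3e-08). It fell by 0.62 under the match polyamide (SE 0.16, adjusted p = 0.0044) and by 0.48 under the mismatch polyamide (SE 0.16, adjusted p = 0.034). Between match and mismatch the difference was -0.14 (95% confidence interval -0.47 to 0.19, adjusted p = 0.63). Match exceeded mifepristone by 1.46 (SE 0.16, adjusted p = 3.5e-07) and mismatch exceeded it by 1.61 (SE 0.16, adjusted p = 2.2e-07). Neither difference is taken from dexamethasone arrays, though those arrays are part of the spread behind both p-values.

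The second ANGPTL4 probe set, 223333_s_at, was also lowest among treated cells under mifepristone. It read 105, 135 and 135 in match arrays, 137, 98.2 and 108 in mismatch arrays, 52.2, 45.7 and 39.2 in mifepristone arrays, 261, 241 and 193 in dexamethasone arrays and 2.59, 1.46 and 6.26 in non-treated arrays. It fell by 2.00 under mifepristone, by 0.81 under match (adjusted p = 0.00037) and by 0.93 under mismatch (adjusted p = 0.00015), each with an SE of 0.16, and match minus mismatch was 0.12 (interval -0.21 to 0.45, adjusted p = 0.69). The fall of 221009_s_at under mismatch held in 16 of 26 alternative settings (adjusted p 0.010 to 0.33). It was lost on the signals as deposited (adjusted p = 0.33), with median centring (0.084) and when arrays were scaled on their spiked-in controls (0.21). A pseudocount of 1 (0.068), no filter (0.055) and no variance trend (0.072) also ended it. So did leaving out dexamethasone array 1 (adjusted p = 0.067) or 3 (0.14), or mismatch array 1 (0.057) or 3 (0.17). The fall of ANGPTL4 under match was lost only under spike-in scaling (adjusted p = 0.16, range 0.0011 to 0.16).

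**Figure D1:**
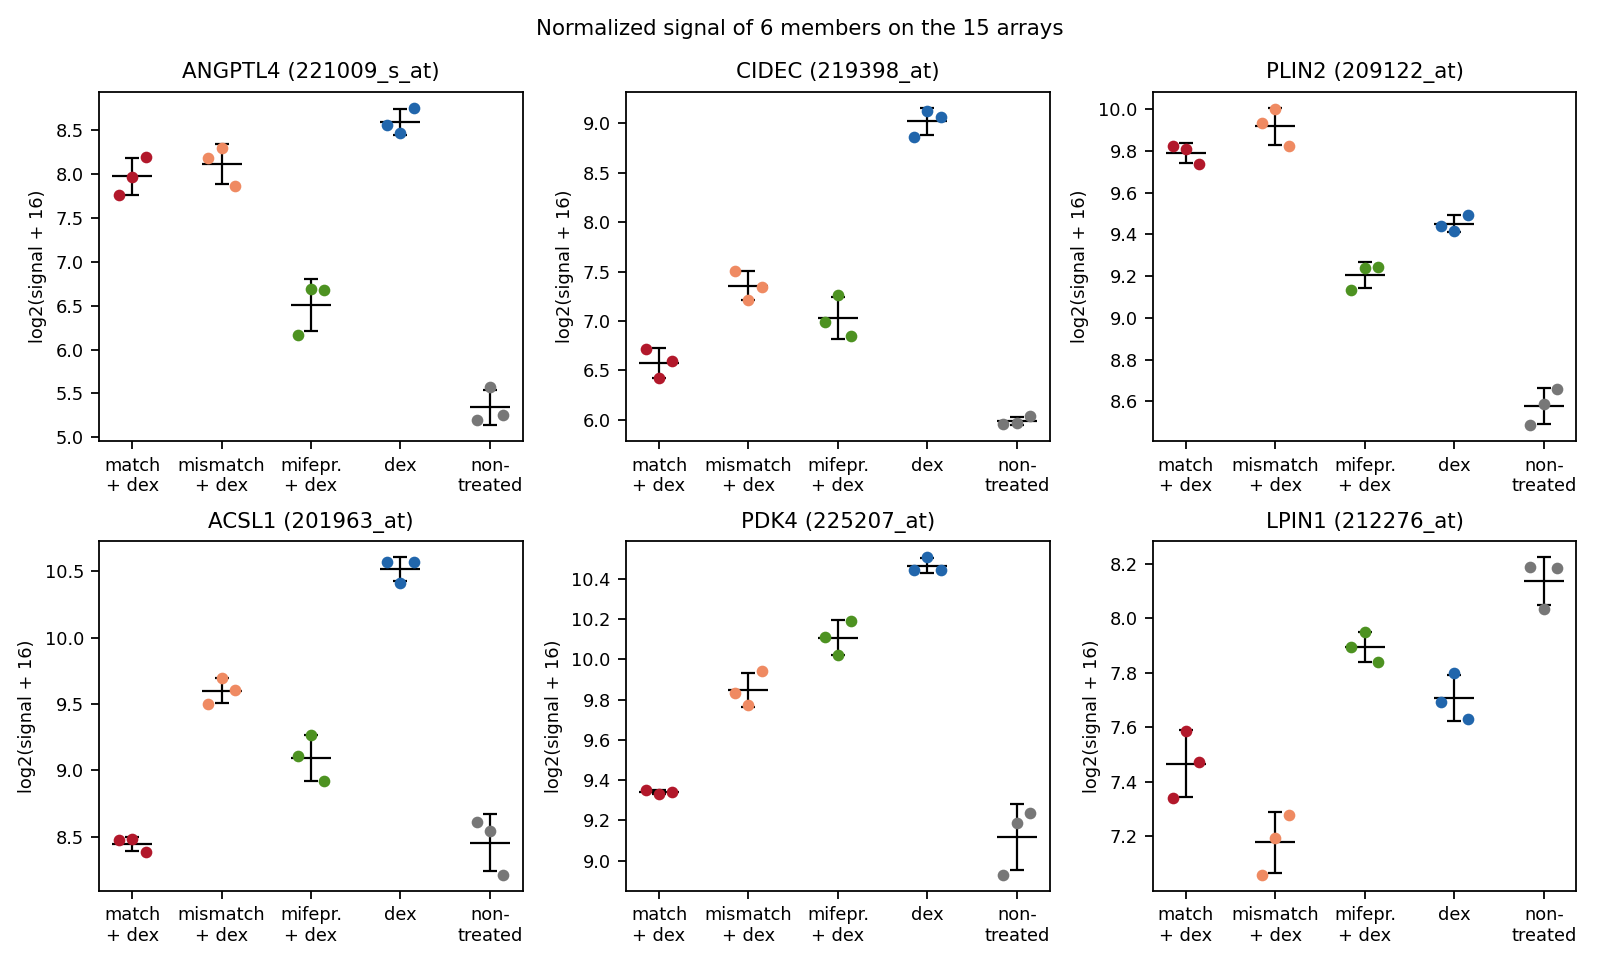
Log2(signal + 16) of 6 probe sets on every array, with match, mismatch, mifepristone, dexamethasone and non-treated groups from left to right; points are arrays and bars the mean ± SD of 3 arrays. ANGPTL4 is lowest among treated cells under mifepristone, while ACSL1 and PDK4 are lowest among treated cells under the match polyamide. The ACSL1 match arrays overlap the non-treated arrays, which does not show that these groups are alike.

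CIDEC, which fuses lipid droplets into larger ones, fell under all 3 compounds, most under the match polyamide. Its probe set 219398_at read 89.4, 69.6 and 80.8 in match arrays, 166, 133 and 147 in mismatch arrays, 111, 138 and 99.3 in mifepristone arrays, 449.7, 543 and 519.9 in dexamethasone arrays and 46.2, 46.6 and 49.5 in non-treated arrays. Every compound array lay between the non-treated and the dexamethasone arrays, and every match array lay below every mismatch and mifepristone array. Dexamethasone cells were higher than non-treated cells by 3.03 (SE 0.13). The gene fell by 2.44 under match (SE 0.13, 5.43-fold lower, adjusted p = 7.7e-12), by 1.66 under mismatch (SE 0.13, 3.17-fold lower, adjusted p = 6.8e-09) and by 1.99 under mifepristone (SE 0.13, 3.96-fold lower, adjusted p = 2.0e-09). Match was below mismatch by a log2 difference of -0.78 (95% interval -1.04 to -0.51, adjusted p = 0.00018) and below mifepristone by one of -0.45 (SE 0.13, adjusted p = 0.0082). Mismatch and mifepristone overlapped and did not pass the test (0.32, SE 0.13, adjusted p = 0.074). Match cells were still above non-treated cells (0.59, SE 0.13, adjusted p = 0.00098).

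The CIDEC difference between match and mismatch was lost under spike-in scaling (-0.60, adjusted p = 0.061, range over the 26 settings 0.00013 to 0.061). That between match and mifepristone was lost without mifepristone array 2 (-0.34, adjusted p = 0.066, range 0.00064 to 0.066). CIDEB, a relative known for loading lipid onto lipoproteins in liver, was dim and passed in no comparison. Its signals ran from 2.51 to 16.4 in match, 17.7 to 21.6 in mismatch, 13.0 to 29.8 in mifepristone, 9.27 to 28.8 in dexamethasone and 3.65 to 21.0 in non-treated arrays, and match minus mismatch was -0.44 (95% interval -1.02 to 0.13).

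PLIN2, the perilipin that coats droplets in most cell types, rose above its dexamethasone level under both polyamides. Its probe set 209122_at read 891, 882 and 838 in match arrays, 963, 1008 and 891 in mismatch arrays, 545, 588 and 590.4 in mifepristone arrays, 679.8, 667 and 705 in dexamethasone arrays and 342, 368 and 388 in non-treated arrays. The polyamide arrays overlapped and were the highest, followed by dexamethasone, mifepristone and non-treated arrays with no overlap. Dexamethasone cells were higher than non-treated cells by 0.87 (SE 0.07). PLIN2 rose by 0.34 under match (SE 0.07, adjusted p = 0.00065) and by 0.47 under mismatch (SE 0.07, adjusted p = 3.8e-05). Under mifepristone the difference was -0.25 (SE 0.07), which missed the threshold (adjusted p = 0.058). Match minus mismatch was -0.13 (95% interval -0.27 to 0.02, adjusted p = 0.24). Match was above mifepristone by 0.59 (SE 0.07, adjusted p = 1.3e-06) and mismatch by 0.72 (SE 0.07, adjusted p = 1.9e-07).

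The PLIN2 rise under match was lost on the signals as deposited (0.38, adjusted p = 0.093) and with median centring (0.28, adjusted p = 0.057), with a range of 0.00046 to 0.093 over the 26 settings. Spike-in scaling ended its call over mifepristone for match (0.36, adjusted p = 0.15) and for mismatch (0.33, adjusted p = 0.17), and the signals as deposited ended it for match (0.18, adjusted p = 0.46). Over the 26 settings the adjusted p ran from 1.3e-06 to 0.46 in the first comparison and from 1.8e-07 to 0.17 in the second.

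The other PLIN2 probe set, 215895_x_at, disagreed with it. It read 28.3, 25.6 and 50.4 in match arrays, 47.0, 50.5 and 48.9 in mismatch arrays, 40.8, 16.9 and 61.4 in mifepristone arrays, 18.4, 27.2 and 49.5 in dexamethasone arrays and 50.0, 51.8 and 53.3 in non-treated arrays. It passed in no comparison, and its dexamethasone minus non-treated difference was -0.56 (SE 0.26) where that of 209122_at was positive. PLIN3, a perilipin that coats new small droplets, ran from 559 to 724 in match, 633 to 725 in mismatch, 472 to 504 in mifepristone, 506 to 707 in dexamethasone and 431 to 553 in non-treated arrays. It passed against dexamethasone alone under no compound, with differences of 0.06 for match, 0.17 for mismatch and -0.31 for mifepristone (SE 0.11 each). Mismatch was above mifepristone by 0.48 (adjusted p = 0.0037, lost on the signals as deposited at 0.23 and under spike-in scaling at 0.08, range 0.00081 to 0.78).

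PNPLA2, the lipase that begins triglyceride breakdown, moved little. Its probe set 39854_r_at read 335, 375 and 337 in match arrays, 363, 329 and 339 in mismatch arrays, 318, 293 and 239 in mifepristone arrays, 281, 227 and 328 in dexamethasone arrays and 257, 278 and 314 in non-treated arrays. The lowest match array exceeded the highest dexamethasone array by little, and the difference was 0.32 (SE 0.12, adjusted p = 0.047). That call held in 9 of 26 settings (adjusted p 0.0099 to 0.28), and leaving out dexamethasone array 2 gave a difference of 0.19 (adjusted p = 0.28). It was also lost without dexamethasone array 1, any match array, any mismatch array, mifepristone array 2 or non-treated array 2. The dimmer probe set 212705_x_at ran from 43.3 to 72.0 in match, 50.4 to 62.6 in mismatch, 31.2 to 45.7 in mifepristone, 24.8 to 61.2 in dexamethasone and 30.6 to 36.8 in non-treated arrays and passed against dexamethasone alone under no compound. It was called higher in match than in mifepristone cells (0.55) and than in non-treated cells (0.61). Both calls were lost with median centring (0.39, adjusted p = 0.16, and 0.52, adjusted p = 0.064). The call over mifepristone held in only 8 of 26 settings (adjusted p 0.012 to 0.50). That over non-treated cells was also lost with no filter, without any 1 non-treated array and without match array 2 or 3.

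LPIN1 encodes a phosphatidate phosphatase that makes diacylglycerol for triglyceride and also acts as a coactivator of transcription. Its brighter probe sets were lower in dexamethasone than in non-treated cells, the opposite of ANGPTL4 and CIDEC. Probe set 212276_at read 146, 176 and 162 in match arrays, 117, 131 and 139 in mismatch arrays, 222, 231 and 213 in mifepristone arrays, 191, 207 and 182 in dexamethasone arrays and 276, 246 and 275 in non-treated arrays. No 2 of these groups overlapped, with mismatch lowest and non-treated highest. Dexamethasone minus non-treated was -0.43 (SE 0.10). LPIN1 fell by 0.53 under mismatch (SE 0.10, adjusted p = 0.00042) and differed by -0.24 under match (SE 0.10, adjusted p = 0.071) and 0.19 under mifepristone (SE 0.10, adjusted p = 0.48). The fall under mismatch was lost on the signals as deposited (-0.38, adjusted p = 0.18) and under spike-in scaling (-0.48, adjusted p = 0.10), with a range of 0.00021 to 0.18. Match was below mifepristone by a difference of -0.43 (SE 0.10, adjusted p = 0.0019) and mismatch by one of -0.72 (SE 0.10, adjusted p = 1.6e-05), and both held in all 26 settings.

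LPIN1 probe set 212274_at read 118, 147 and 162 in match arrays, 105, 105 and 56.5 in mismatch arrays, 209, 179 and 167 in mifepristone arrays, 109, 152 and 144 in dexamethasone arrays and 243, 276 and 266 in non-treated arrays. Match and dexamethasone arrays overlapped, and mismatch arrays were again the lowest. It fell by 0.56 under mismatch (SE 0.17, adjusted p = 0.022), while match minus dexamethasone was 0.07 (adjusted p = 0.81). Match was above mismatch by 0.63 (95% interval 0.27 to 0.98, adjusted p = 0.013). Without mismatch array 3, at 56.5 the dimmest, the fall under mismatch was -0.31 (adjusted p = 0.16) and the excess of match over mismatch was 0.38 (adjusted p = 0.094). The fall held in 19 of 26 settings and was also lost without dexamethasone array 2 or 3 (adjusted p = 0.097 and 0.076). The signals as deposited (adjusted p = 0.12), spike-in scaling (0.078), no variance trend (0.057) and only the 6 arrays compared (0.051) ended it too. The excess held in 22 of 26 settings. It was also lost without match array 3 (adjusted p = 0.065), on the signals as deposited (0.099) and with only the 6 arrays compared (0.0505). Adjusted p ran from 0.011 to 0.16 for the fall and from 0.0084 to 0.099 for the excess over the 26 settings. For 212276_at the same excess was 0.29 (SE 0.10, adjusted p = 0.0499) and held in only 4 of 26 settings (adjusted p 0.029 to 0.75). Most leave-out settings ended it, with differences of 0.23 without match array 2 or mismatch array 1. The third LPIN1 probe set, 212272_at, was dim, at 24.3 to 48.7 in the 4 treated groups and 40.1 to 54.1 in non-treated arrays, and passed only in mismatch against non-treated cells (-0.53, SE 0.18, adjusted p = 0.038, in 19 of 26 settings).

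**Figure D2:**
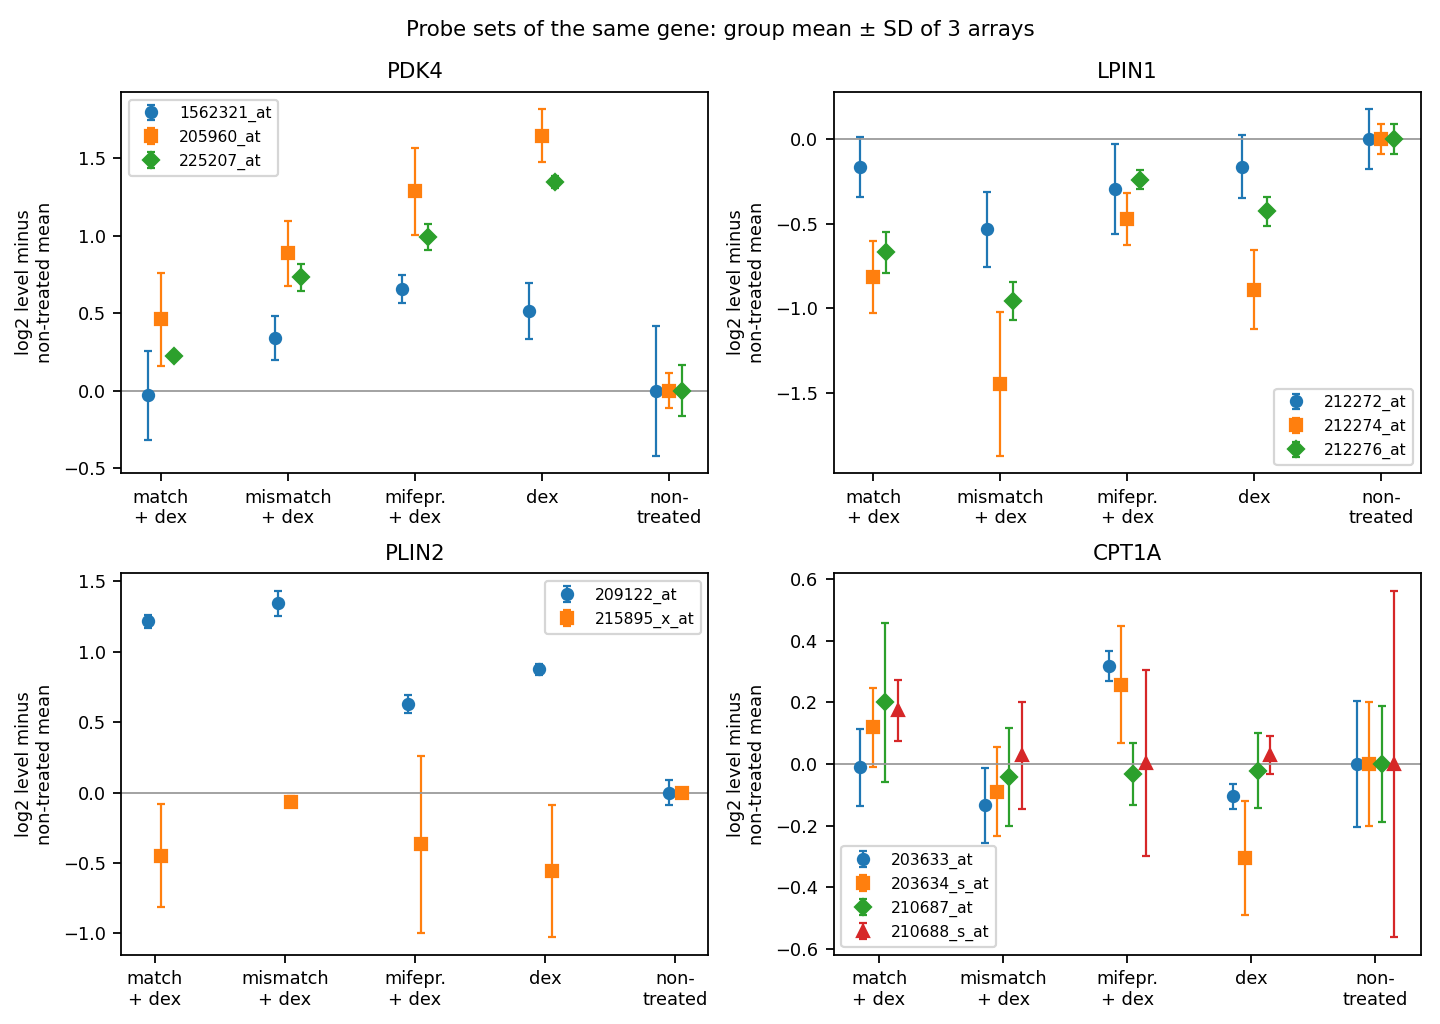
Probe sets of PDK4, LPIN1, PLIN2 and CPT1A as group mean ± SD of log2(signal + 16) (n = 3 arrays) relative to the non-treated mean, groups from match on the left to non-treated on the right. PDK4 205960_at and 225207_at run together, while the 2 PLIN2 probe sets run apart.

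ACSL1, the long-chain acyl-CoA synthetase, had the largest difference between the polyamides among the 21 probe sets. Probe set 201963_at read 339, 342 and 318 in match arrays, 710.0, 812 and 763 in mismatch arrays, 535, 599 and 467 in mifepristone arrays, 1503, 1347 and 1502 in dexamethasone arrays and 375, 357 and 281 in non-treated arrays. Match and non-treated arrays overlapped, and above them mifepristone, mismatch and dexamethasone arrays followed with no overlap. Dexamethasone cells were higher than non-treated cells by 2.06 (SE 0.10). ACSL1 fell by 2.07 under match (SE 0.10, 4.20-fold lower, adjusted p = 2.9e-12), by 0.92 under mismatch (SE 0.10, 1.89-fold lower, adjusted p = 9.8e-07) and by 1.42 under mifepristone (SE 0.10, 2.68-fold lower, adjusted p = 9.2e-09). Match was 2.23-fold below mismatch, a difference of -1.15 (95% interval -1.36 to -0.95, adjusted p = 1.2e-07). Match minus non-treated was -0.01 (95% interval -0.22 to 0.20, adjusted p = 0.96), which bounds any remaining difference but does not show that the groups are alike. Match was below mifepristone by a difference of -0.65 (SE 0.10, adjusted p = 3.3e-05). All of these calls held in all 26 settings.

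The second ACSL1 probe set, 207275_s_at, read 150.0, 122 and 153 in match arrays, 268, 252 and 249.6 in mismatch arrays, 171, 172 and 168 in mifepristone arrays, 438, 485 and 533 in dexamethasone arrays and 118, 118 and 125 in non-treated arrays. Mifepristone, mismatch and dexamethasone arrays again followed each other with no overlap above match and non-treated arrays, which overlapped. Match minus non-treated was 0.20 (SE 0.10, adjusted p = 0.13), and it passed at 0.30 without match array 2 (adjusted p = 0.032). Probe set 207275_s_at fell by 1.67 under match, 0.87 under mismatch and 1.42 under mifepristone (SE 0.10 each), and match minus mismatch was -0.79 (SE 0.10, adjusted p = 9.6e-06). Mismatch exceeded mifepristone by 0.51 on 201963_at (adjusted p = 0.00079) and by 0.55 on 207275_s_at (adjusted p = 0.00030). Those calls were lost on the signals as deposited (differences of 0.27 and 0.26) and under spike-in scaling (differences of 0.12 for both). Adjusted p reached 0.67 for 201963_at and 0.72 for 207275_s_at.

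CPT1A, the enzyme that commits fatty acids to mitochondria, differed little between dexamethasone and non-treated cells. Its brightest probe set, 203633_at, read 295, 292 and 343 in match arrays, 302, 293 and 255 in mismatch arrays, 377, 405 and 395 in mifepristone arrays, 290.4, 279 and 297 in dexamethasone arrays and 320.0, 357 and 265 in non-treated arrays. The mifepristone arrays were the highest with no overlap, and the other groups overlapped. Dexamethasone minus non-treated was -0.10 (SE 0.10). CPT1A rose by 0.42 under mifepristone (SE 0.10, adjusted p = 0.018), and the differences under match and mismatch were 0.09 and -0.03. The rise was lost without dexamethasone array 1 or 2 (adjusted p = 0.056 and 0.081), without mifepristone array 2 or 3 (adjusted p = 0.084 and 0.058) and without a variance trend (0.075), and its adjusted p ran from 0.0012 to 0.084. Mismatch was below mifepristone by a difference of -0.45 (SE 0.10, adjusted p = 0.0022), which held in all 26 settings. Probe set 203634_s_at was higher than dexamethasone alone by 0.56 under mifepristone (SE 0.17) without passing (adjusted p = 0.09), and 210687_at and 210688_s_at passed in no comparison.

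PDK4, the kinase that inactivates pyruvate dehydrogenase, fell most under the match polyamide and least under mifepristone. Probe set 225207_at read 638, 628 and 632 in match arrays, 895, 859 and 967 in mismatch arrays, 1089.9, 1022 and 1153 in mifepristone arrays, 1374, 1439 and 1376 in dexamethasone arrays and 472, 567 and 587 in non-treated arrays. No 2 groups overlapped. Dexamethasone cells were higher than non-treated cells by 1.35 (SE 0.08). PDK4 fell by 1.12 under match (SE 0.08, 2.18-fold lower, adjusted p = 4.4e-10), by 0.62 under mismatch (SE 0.08, adjusted p = 4.6e-06) and by 0.36 under mifepristone (SE 0.08, adjusted p = 0.0075). Match was below mismatch by a difference of -0.51 (95% interval -0.67 to -0.35, adjusted p = 8.2e-05) and below mifepristone by one of -0.77 (SE 0.08, adjusted p = 1.2e-07). The fall under mifepristone turned to 0.08 on the signals as deposited and to 0.12 under spike-in scaling, and was lost with median centring (-0.18), without a variance trend and without mifepristone array 2 (-0.31, adjusted p = 0.057), with adjusted p from 0.0021 to 0.73. The fall under mismatch was lost on the signals as deposited (-0.40, adjusted p = 0.099) and under spike-in scaling (-0.51, adjusted p = 0.064), range 1.0e-06 to 0.099, and match minus mismatch under spike-in scaling (-0.36, adjusted p = 0.24), range 2.1e-05 to 0.24.

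Probe set 205960_at of PDK4 read 98.4, 62.0 and 66.5 in match arrays, 114, 86.8 and 118 in mismatch arrays, 121, 135 and 183 in mifepristone arrays, 179.6, 219 and 172 in dexamethasone arrays and 52.4, 44.0 and 53.1 in non-treated arrays. It fell by 1.19 under match (SE 0.16, adjusted p = 8.8e-06) and by 0.76 under mismatch (SE 0.16, adjusted p = 0.0017), and both calls held in all 26 settings. Under mifepristone the difference was -0.36 (SE 0.16, adjusted p = 0.36), with 1 mifepristone array inside the dexamethasone range. Match minus mismatch was -0.43 (95% interval -0.77 to -0.08, adjusted p = 0.086). The dim probe set 1562321_at ran from 8.16 to 20.1 in match, 19.9 to 26.8 in mismatch, 28.9 to 34.9 in mifepristone, 22.2 to 33.1 in dexamethasone and 7.86 to 25.8 in non-treated arrays. It passed only in match against mifepristone (-0.69, SE 0.21, adjusted p = 0.016), a call lost without match array 2 (-0.55, adjusted p = 0.085) or mifepristone array 3 (-0.64, adjusted p = 0.057), with a range of 0.0034 to 0.085.

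**Figure D3:**
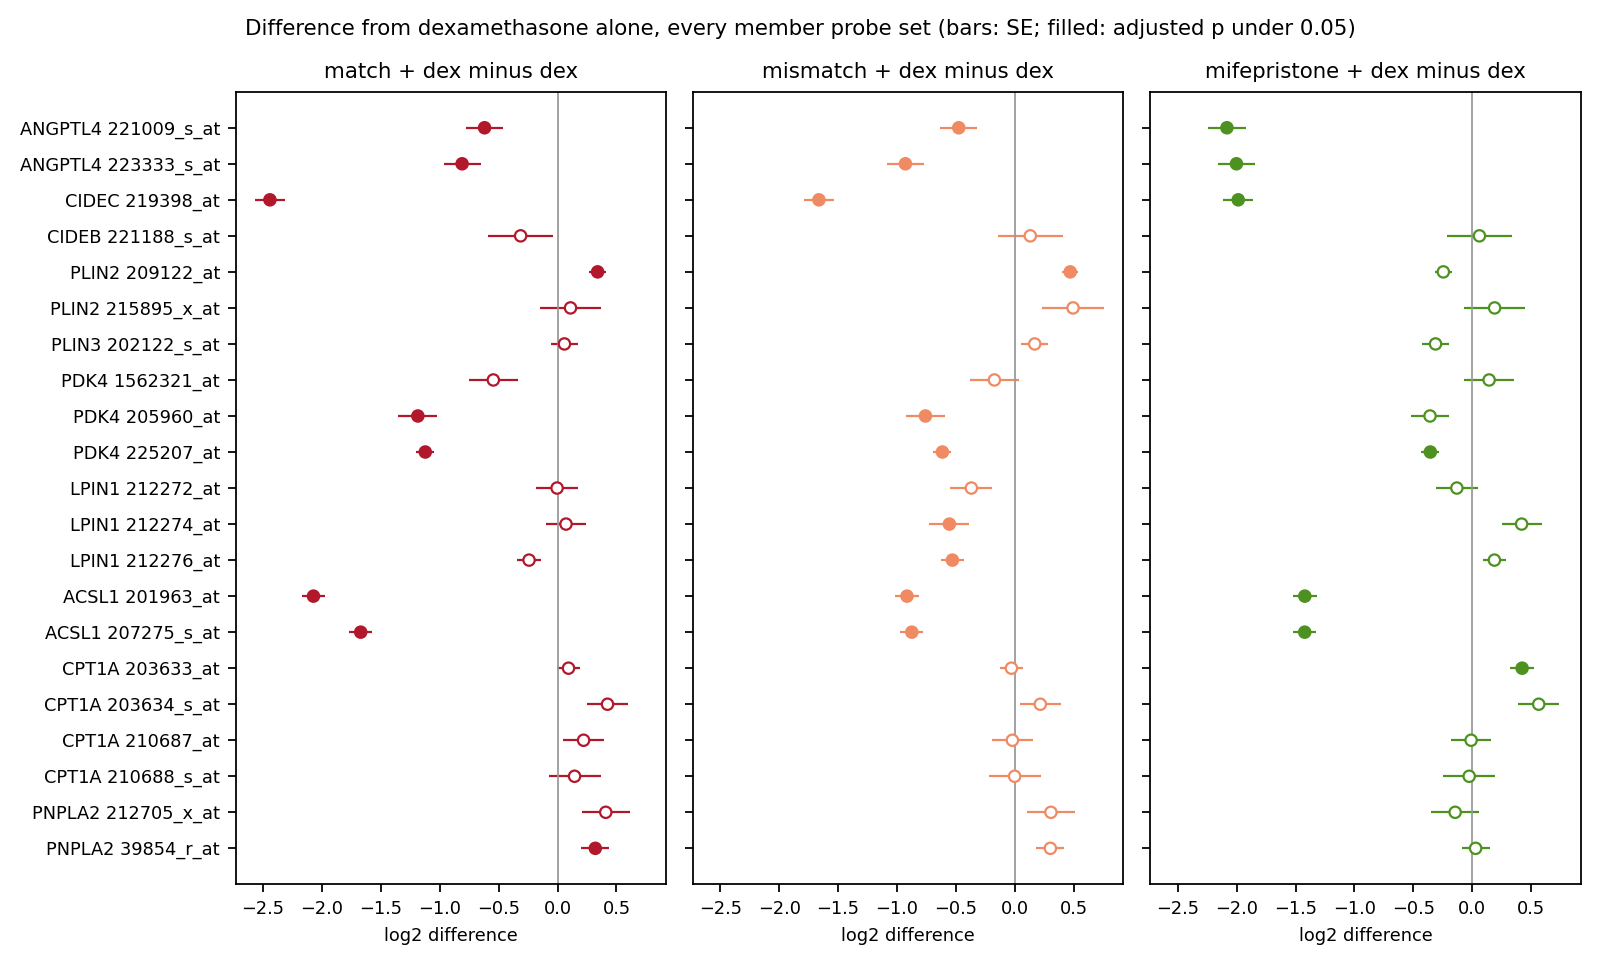
Log2 difference from dexamethasone alone for all 21 probe sets under match, mismatch and mifepristone; bars are the SE and filled points passed at adjusted p under 0.05. CIDEC and ACSL1 lie far below 0 under all 3 compounds, ANGPTL4 mainly under mifepristone, and PLIN2 209122_at above 0 under both polyamides.

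Counted over the 21 probe sets, 2 rose and 7 fell under match relative to dexamethasone alone, where 15.9% of all probe sets rose and 14.9% fell (30.8% called). Under mismatch 1 rose and 9 fell, where 12.0% of all rose and 10.9% fell (22.9% called). Under mifepristone 1 rose and 6 fell, where 1.61% of all rose and 1.94% fell (3.55% called). The members' median differences were -0.00, -0.17 and -0.13 for match, mismatch and mifepristone, and those of all probe sets 0.03, 0.02 and 0.01. All these counts use the dexamethasone arrays by which the genes were chosen, so nothing is read from them against the background. At 2-fold or more, 7 of 21 were higher and 0 lower in dexamethasone than in non-treated cells, where 0.752% of all probe sets were that much higher and 0.211% that much lower; nothing is read from this count, which the choice of the genes used.

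Between the compounds, 2 probe sets were higher and 4 lower in match than in mismatch cells, where 7.46% of all probe sets were higher and 9.37% lower (16.8% called). The higher ones were LPIN1 212274_at and 212276_at, and the lower ones were CIDEC, PDK4 225207_at and both ACSL1 probe sets. Against mifepristone, match had 5 higher and 7 lower, where 15.8% of all were higher and 15.2% lower (31.0% called). Mismatch had 6 higher and 4 lower than mifepristone, where 11.5% of all were higher and 11.0% lower (22.5% called). ANGPTL4 and PLIN2 209122_at were on the higher side for both polyamides, and ACSL1 201963_at was lower for match and higher for mismatch. ACSL1 207275_s_at, also higher for mismatch, missed the threshold for match (-0.25, SE 0.10, adjusted p = 0.063).

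**Figure D4:**
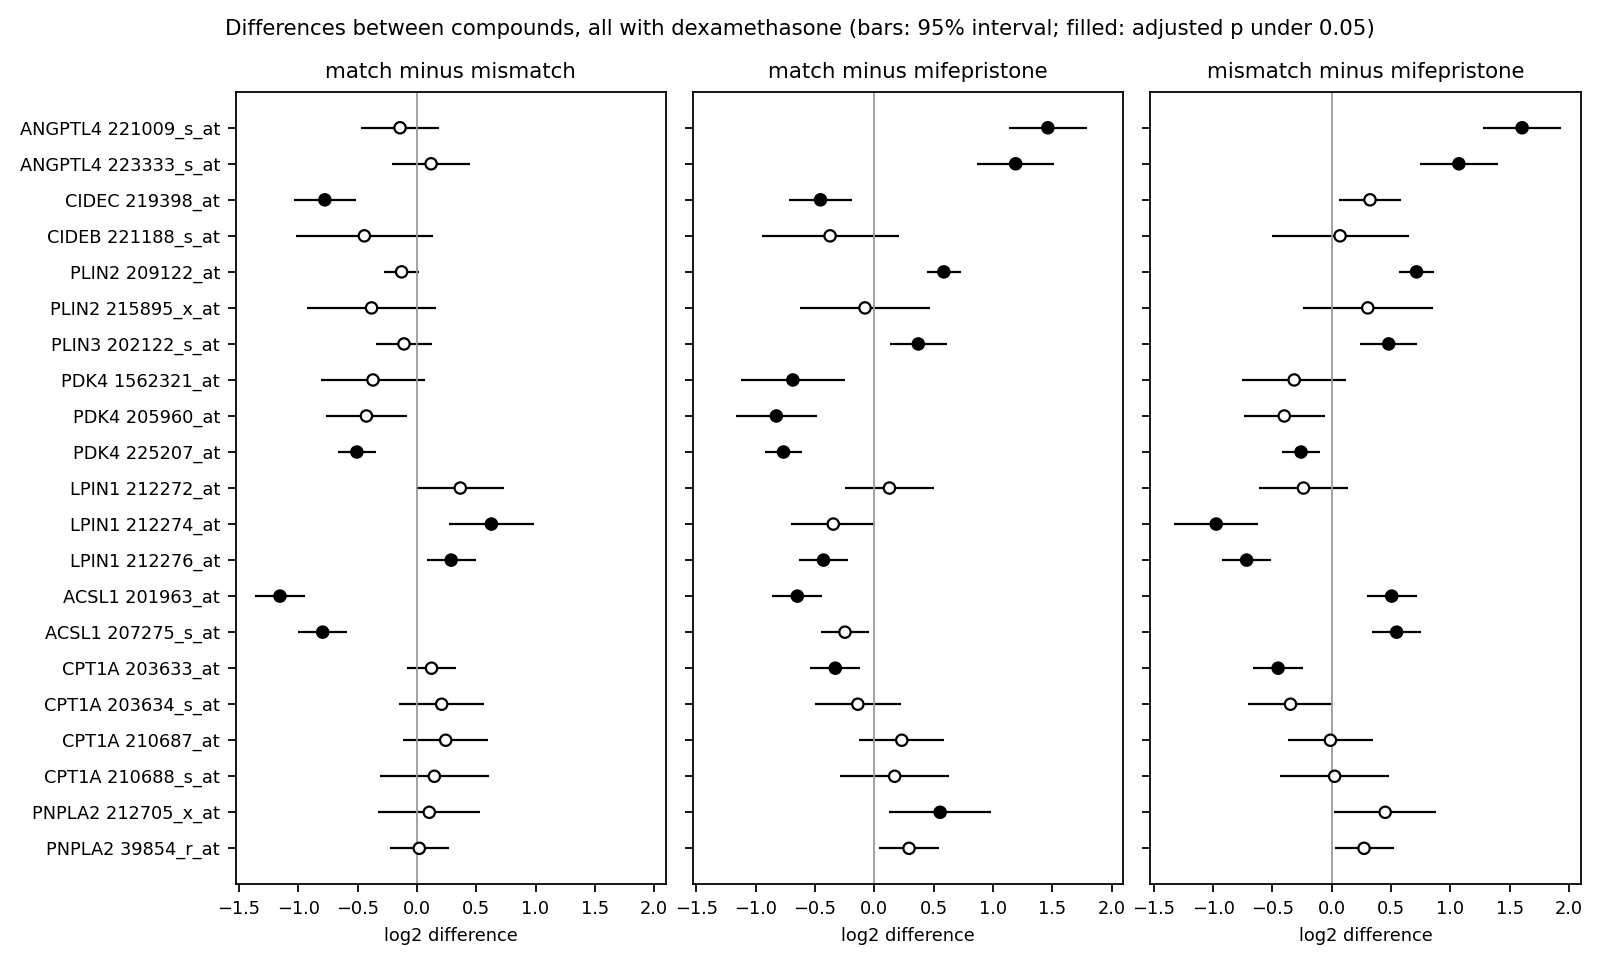
Log2 differences between compounds (match minus mismatch, match minus mifepristone and mismatch minus mifepristone) with 95% confidence intervals for the 21 probe sets. ANGPTL4 spans 0 between the polyamides and lies above 1 for either polyamide over mifepristone, while ACSL1 201963_at lies at -1.15 between the polyamides.

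Relative to non-treated cells, which had no dexamethasone, 7 probe sets were higher and 0 lower under mifepristone, where 0.121% of all probe sets were higher and 0.0453% lower (0.166% called). The non-treated arrays were also used in choosing the genes, so this count and those for the polyamides are not read against the background. The 7 were both ANGPTL4 probe sets, CIDEC, PLIN2 209122_at, PDK4 205960_at and 225207_at and ACSL1 201963_at. ANGPTL4 223333_s_at was higher by 1.67 (SE 0.16, adjusted p = 8.2e-06), CIDEC by 1.05 (SE 0.13, adjusted p = 0.00017) and PDK4 225207_at by 0.99 (SE 0.08, adjusted p = 6.7e-07), and all 3 held in all 26 settings. Match had 8 higher and 2 lower, where 15.1% of all were higher and 14.8% lower (29.8% called), led by ANGPTL4 223333_s_at at 2.86 (SE 0.16, adjusted p = 1.9e-11) and PLIN2 209122_at at 1.22 (SE 0.07, adjusted p = 3.8e-11). Mismatch had 9 higher and 3 lower, where 10.3% of all were higher and 10.6% lower (21.0% called), with PLIN2 209122_at at 1.34 (SE 0.07, adjusted p = 2.2e-11) and ACSL1 201963_at at 1.14 (SE 0.10, adjusted p = 4.2e-08). LPIN1 212276_at was lower by differences of -0.67 in match cells (adjusted p = 2.0e-05) and -0.96 in mismatch cells (adjusted p = 3.8e-07), SE 0.10 each. The first of these was lost under spike-in scaling (-0.50, adjusted p = 0.051, range 7.9e-06 to 0.051).

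Other genes of the same pathways were read from 6 lists, with 1 probe set a gene. The lists were chosen with earlier results of these data known, so their counts are not tested against all genes. Among all 16367 genes read in that way, 21.5% rose and 17.4% fell under match, 17.9% rose and 11.7% fell under mismatch, and 2.53% rose and 2.76% fell under mifepristone. Among 12 tested lipid droplet genes, 1 rose and 5 fell under match, 2 rose and 2 fell under mismatch and none passed under mifepristone. MGLL, the lipase that cleaves monoglyceride, fell by 0.75 under match (SE 0.11, adjusted p = 1.2e-05) and by 0.70 under mismatch (SE 0.11, adjusted p = 5.7e-05). HILPDA, a droplet protein that inhibits PNPLA2, was lower in match than in mismatch cells by a difference of -0.73 (SE 0.10, adjusted p = 3.8e-05). Among 14 genes of triglyceride and phospholipid synthesis, 5 rose and 2 fell under match, 3 rose and 1 fell under mismatch and 1 rose under mifepristone. DGAT2, which makes triglyceride from diacylglycerol, rose by 1.27 under match (SE 0.18, adjusted p = 1.1e-05) and by 1.08 under mismatch (SE 0.18, adjusted p = 0.00012). PLPP1, a lipid phosphate phosphatase, fell by 1.27 under match (SE 0.10, adjusted p = 1.9e-09) and was lower in match than in mismatch cells by a difference of -1.15 (SE 0.10, adjusted p = 6.5e-08).

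Among 14 genes of fatty acid uptake, binding and activation, 3 rose and 2 fell under match, 2 rose and 1 fell under mismatch and 1 rose under mifepristone. SLC27A2, a very long-chain acyl-CoA synthetase, fell by 0.58 under match (SE 0.06, adjusted p = 4.1e-07) and by 0.32 under mismatch (SE 0.06, adjusted p = 0.00077), and rose by 0.34 under mifepristone (SE 0.06, adjusted p = 0.0024). Its signal averaged 999 in dexamethasone and 1329 in non-treated arrays, and 663, 796 and 1267 in match, mismatch and mifepristone arrays. Among 19 genes of mitochondrial fatty acid oxidation, 1 rose and 5 fell under match, 4 rose and 2 fell under mismatch and 1 rose under mifepristone. In match against mismatch cells, 1 of the 19 was higher and 7 were lower, where 9.41% of all genes were higher and 13.5% lower. The list's median difference was -0.19 where that of all genes was -0.02. The median was -0.26 for pyruvate dehydrogenase and its regulators (1 higher and 4 lower of 12). It was -0.24 for fatty acid uptake (0 and 3 of 14) and -0.12 for lipid droplet genes (0 and 2 of 12). It was -0.10 for transcription regulators (1 and 4 of 13) and 0.05 for triglyceride and phospholipid synthesis (3 and 1 of 14). DECR1, a reductase needed for unsaturated fatty acids, was lower in match than in mismatch cells by a difference of -0.995 (SE 0.08, adjusted p = 2.0e-08), and CPT2, the inner-membrane carnitine palmitoyltransferase, by one of -0.63 (SE 0.12, adjusted p = 0.0011).

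Among 12 genes of pyruvate dehydrogenase and its regulators, where PDK4 acts, 1 rose and 2 fell under match, 3 rose and 1 fell under mismatch and none passed under mifepristone. MPC2, a subunit of the mitochondrial pyruvate carrier, fell by 0.49 under match (SE 0.06, adjusted p = 1.8e-06), and PDHB, a subunit of the complex itself, rose by 0.30 under match (SE 0.06, adjusted p = 0.00046) and by 0.58 under mismatch (SE 0.06, adjusted p = 4.7e-07). PDHB averaged 1146 in dexamethasone, 1309 in non-treated, 1421 in match and 1724 in mismatch arrays. Among 13 transcription regulators of lipid metabolism, 3 rose and 6 fell under match, 2 rose and 3 fell under mismatch and 4 fell under mifepristone. FOXO3, a forkhead factor known to drive PDK4, fell by 1.58 under match (SE 0.10, adjusted p = 9.2e-11), by 0.88 under mismatch (SE 0.10, adjusted p = 9.8e-07) and by 1.37 under mifepristone (SE 0.10, adjusted p = 9.2e-09). Its signal averaged 680 in dexamethasone and 248 in non-treated arrays, and 216, 362 and 253 in match, mismatch and mifepristone arrays. SREBF1, the factor that drives fatty acid synthesis, rose by 1.45 under match (SE 0.12, adjusted p = 7.9e-09) and by 1.12 under mismatch (SE 0.12, adjusted p = 7.5e-07). It averaged 292 in dexamethasone, 436 in non-treated, 828 in match and 649 in mismatch arrays. Match exceeded non-treated cells by 0.89 (SE 0.12, adjusted p = 7.2e-06). PPARG, the adipocyte nuclear receptor, fell by 0.86 under match (SE 0.09, adjusted p = 2.3e-07), by 0.81 under mismatch (SE 0.09, adjusted p = 1.4e-06) and by 0.54 under mifepristone (SE 0.09, adjusted p = 0.00079). PPARG averaged 389 in dexamethasone and 298 in non-treated arrays, and 207, 215 and 264 in match, mismatch and mifepristone arrays.

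**Figure D5:**
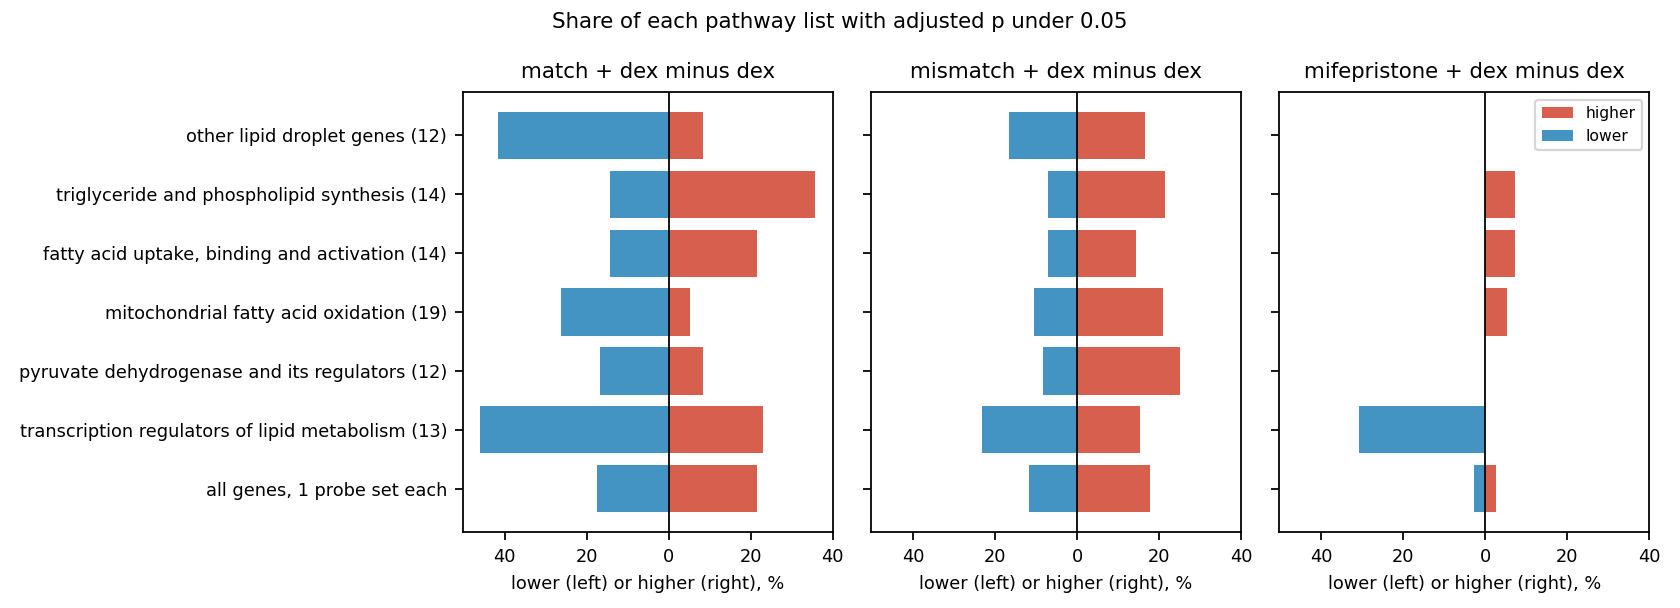
Percent of tested genes called higher or lower in each of 6 pathway lists, beside the percent among all genes with 1 probe set each, for match, mismatch and mifepristone minus dexamethasone. Mifepristone calls few genes outside the transcription regulators, where 4 of 13 fell. Of these 13, 6 were called higher and 1 lower in dexamethasone than in non-treated cells. The lists were chosen with earlier results known, so nothing is read from this count.

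Across the 5 group means, the genes most like each member were those with the smallest root mean square difference of centred log2 values, 1 probe set a gene, a description with no p since all points share the arrays. For ANGPTL4 they were TSC22D3 at 0.21, RGS2 at 0.36 and ZFP36 at 0.40, where ANGPTL4 itself spread by 1.20 around its mean. For CIDEC they were MT1F at 0.32 and ACSL1 and FGD4 at 0.33 each, against its own 1.02, and for ACSL1 they were TMT1A at 0.17, MT1F at 0.18 and RASSF4 at 0.21, against 0.78. PDK4 lay closest to SLC45A4 at 0.16, MAOA at 0.17 and LOC101060553 at 0.19, against 0.49. PLIN2 lay closest to TGFBR1 at 0.10, CPM at 0.13 and SHROOM3 at 0.13, against 0.48, and LPIN1 to IVNS1ABP at 0.04, KATNIP at 0.05 and ID2 at 0.07, against 0.33. CIDEB, PLIN3, CPT1A and PNPLA2 spread by only 0.17, 0.20, 0.16 and 0.14, and the genes most like them are not named here.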

How the data were processed

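The deposited file holds a linear intensity for each probe set of each array, which MAS5 gave per the submitters' processing notes, with no scaling target stated in the sources used here. Array medians ran from 14.8 to 24.5 and 2% trimmed means from 86.8 to 146, so signals were quantile normalized. Probe sets above their array's 40th percentile on at least 3 of 15 arrays were tested, without the 62 control probe sets, which kept 39778 (72.8%). limma 3.58.1 in R 4.3.3 was fitted to log2(signal + 16) over all 15 arrays, 1 mean per group, with a variance trend and Benjamini-Hochberg adjustment. The number of arrays limits precision (10 residual and 9.36 prior degrees of freedom). Correlations between arrays were 0.978 to 0.985 within groups, and no 2 arrays were identical. The fit was tested on simulated data. Probe sets were named from the platform annotation, which gave 1 symbol for 41097, several for 1801 and none for 11777. Members, pathway lists and marker lists were chosen with earlier results of these data known. All probe sets of members were reported, and from each list and comparison up to 3 called genes with the smallest adjusted p entered the tables, from which examples were taken. The 26 alternatives changed scaling, filter, pseudocount, variance trend, arrays fitted or a replicate block, or left out 1 array.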

Additional observations from a re-analysis of the deposited data

How the results depend on the processing

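Of 83 calls over the 21 probe sets and 9 tested comparisons, 51 were kept in every one of the 26 settings and 32 were lost in at least 1. Of the other 106 pairs, 27 were called in at least 1 setting. Some counts of called probe sets moved by over 1.5 times with scaling. Mismatch minus dexamethasone had 10, but 6 on the signals as deposited and 6 under spike-in scaling. Match minus mismatch had 6, but 3 under spike-in scaling. Mifepristone minus non-treated had 7, but 11 on the signals as deposited, and match minus non-treated had 10, but 6 with median centring. Only these signs turned among calls: PDK4 225207_at, mifepristone minus dexamethasone, was 0.080 on the signals as deposited (adjusted p = 0.73) and 0.12 under spike-in scaling (0.63), and PLIN3, match minus mifepristone, was -0.033 on the signals as deposited (0.92). The median of all probe sets was 0.35 for mifepristone minus dexamethasone and 0.36 for mifepristone minus non-treated on the signals as deposited, and 0.38 and 0.35 under spike-in scaling, where it was 0.01 and -0.00 after quantile normalization. Leaving out 1 array gave 8 to 10 called for match minus dexamethasone, 8 to 10 for mismatch minus dexamethasone, 5 to 8 for mifepristone minus dexamethasone, 4 to 7 for match minus mismatch, 8 to 13 for match minus mifepristone, 9 to 11 for mismatch minus mifepristone, 7 to 11 for match minus non-treated, 11 to 13 for mismatch minus non-treated and 7 to 8 for mifepristone minus non-treated. After each group's mean was subtracted, same-numbered arrays of different groups correlated at -0.083 to 0.116, over 0.1 in 2 of 30 pairs. Arrays with other numbers correlated at -0.132 to 0.135, over 0.1 in 2 of 60 pairs. The numbers were therefore not taken as pairing. With a replicate block, match minus dexamethasone had 9 called, mismatch minus dexamethasone 10, match minus mismatch 5 and match minus mifepristone 11. CIDEB had no value under the stricter filter, and dim probe sets (CIDEB, PDK4 1562321_at, PLIN2 215895_x_at) have wide intervals.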
